A study of Mus musculus with 12 samples.

Results

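The subject here is a family of Gene Ontology (GO) gene sets that concern behavior, learning and memory, followed across 8 gene lists from the hippocampus of mice that model Koolen-de Vries syndrome. A GO term is a named set of genes annotated to one process, function or cell structure. Members were the listed terms whose name holds "behavior", "learning", "memory", "cognition", "locomotory" or "feeding", in any case and anywhere in the name. Of 1076 term entries in the 8 lists together, which name 490 distinct terms, 17 entries and 11 distinct terms met this rule. The word "behavior" accounted for 13 entries with 7 terms, "learning" for 2 entries, "memory" for 1, "cognition" for 2, "locomotory" for 2 and "feeding" for 0, and some names hold more than 1 of the words. One member, neuron recognition, matched only because "recognition" contains the letters of "cognition". It describes how a neuron recognises another cell and is given apart from the rest.

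Promoters were profiled by ChIP-seq for H3K4me3, a histone mark of the promoters of active genes, in whole hippocampus of C57BL/6N mice at postnatal day 30. The 12 libraries came from 3 Del/+ mice, which lack 1 copy of the Arf2-Kansl1 interval, 3 Kansl1+/- mice, heterozygous for Kansl1 alone, and 6 wt mice, 3 of them littermates of each mutant. Kansl1 encodes a subunit of the NSL complex, which acetylates histones, and it is deleted in both models, so that the Del/+ mice carry the Kansl1 loss together with that of its neighbours. Each mutant group was compared by the authors with the same 6 wt libraries, which gave the genes up- and down-regulated in H3K4me3 in Del/+ and in Kansl1+/-. The genes up-regulated in either mutant were further divided by the authors into clusters 1 to 4, so the clusters are not separate evidence from the lists of up-regulated genes. By the study's description, cluster 1 rose in Kansl1+/- and not in Del/+, cluster 2 in both, cluster 3 more strongly in Del/+, and cluster 4 in Del/+ alone. "Up-regulated" refers here to the mark at the promoter and not to RNA.

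The deposited tables give, for each listed term, the number of list genes it holds, its size in the background of all annotated genes, the expected number and the fold of observed over expected. They hold no value for a single mouse or a single gene. Library depth is therefore unknown and the spread between mice cannot be given. The identity of the genes in a term, their promoters and the markers of hippocampal cell types were not analysed here. In a whole tissue, fewer cells of a type and less of the mark per cell cannot be told apart. The background of 23468 genes and the list sizes were recovered from the printed values. The lists held 512 genes for Del/+ up, 343 for Del/+ down, 343 for Kansl1+/- up, 483 for Kansl1+/- down, and 160, 214, 212 and 162 for clusters 1, 2, 3 and 4. These are numbers of genes as the GO tests counted them, not of promoters. A term was listed when its hypergeometric p was below 1e-05, so every listed fold lies above 1 by construction, and the folds below describe the lists without testing them.

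In GO, behavior covers the actions or responses of a whole animal and gathers genes whose loss or mutation alters what the animal does, many of them genes of synapses, ion channels and receptors. Cognition, learning or memory, and learning are successively narrower sets. Locomotory behavior covers movement from place to place, adult behavior the actions of mature animals, and social behavior the interactions among animals of a species. Regulation of behavior is a separate set, of genes that modulate the frequency, rate or extent of a behavior. The hippocampus is known for its part in spatial and episodic memory. Because the sets are nested and overlap, the same genes are counted in several of them.

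The list of genes with more H3K4me3 in Del/+, which is also the longest of the 8, held an entry for each of the 11 members. Of 21172 terms tested, 250 (1.18%) were listed for Del/+ up, the 11 members among them. For Kansl1+/- up, 302 terms (1.43%) were listed and 1 was a member. Cluster 2 had 104 listed terms (0.491%) with 1 member, cluster 3 had 125 (0.590%) with 2, and cluster 4 had 89 (0.420%) with 2. Of the lists without a member, 190 terms (0.897%) were listed for cluster 1 and 0 of them were members, 14 (0.0661%) for Kansl1+/- down with 0 members, and 2 (0.00945%) for Del/+ down with 0 members. Being listed is what made a term a member, so nothing is read from these counts against the shares of all terms.

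Behavior, the broadest set with 584 background genes, held 49 of the 512 genes of the Del/+ up list, beside an expected number of 12.74. This is a 3.85-fold excess, with an exact Clopper-Pearson 95% interval of 2.88 to 5.0. The share of the list was 9.57% (interval 7.16% to 12.5%), against 2.49% of the background. All intervals given here cover counting error only, and they treat the genes of a list as independent draws. Seen from the side of the term, 8.39% of the genes annotated to behavior were in the Del/+ up list. In the same list, single-organism behavior, a subset of behavior with 429 genes, held 41 genes where 9.36 were expected, a 4.38-fold excess (interval 3.18 to 5.86).

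Both sets also appeared in clusters 3 and 4. In cluster 3, behavior held 19 of 212 genes (8.96%, interval 5.48% to 13.6%) where 5.28 were expected, a 3.60-fold excess. In cluster 4, it held 18 of 162 genes (11.1%, interval 6.72% to 17.0%) where 4.03 were expected, a 4.46-fold excess. Single-organism behavior held 17 genes in cluster 3, a 4.39-fold excess over 3.88, and 15 genes in cluster 4, a 5.07-fold excess over 2.96. The 3 shares of behavior thus lie between 8.96% and 11.1%, and each lies within the intervals of the other two. By the study's description, cluster 4 was cut from genes up-regulated in Del/+, and genes of cluster 3 can also be in the Del/+ up list. The shares therefore partly count the same genes, and their similarity was not tested.

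**Figure D1:**
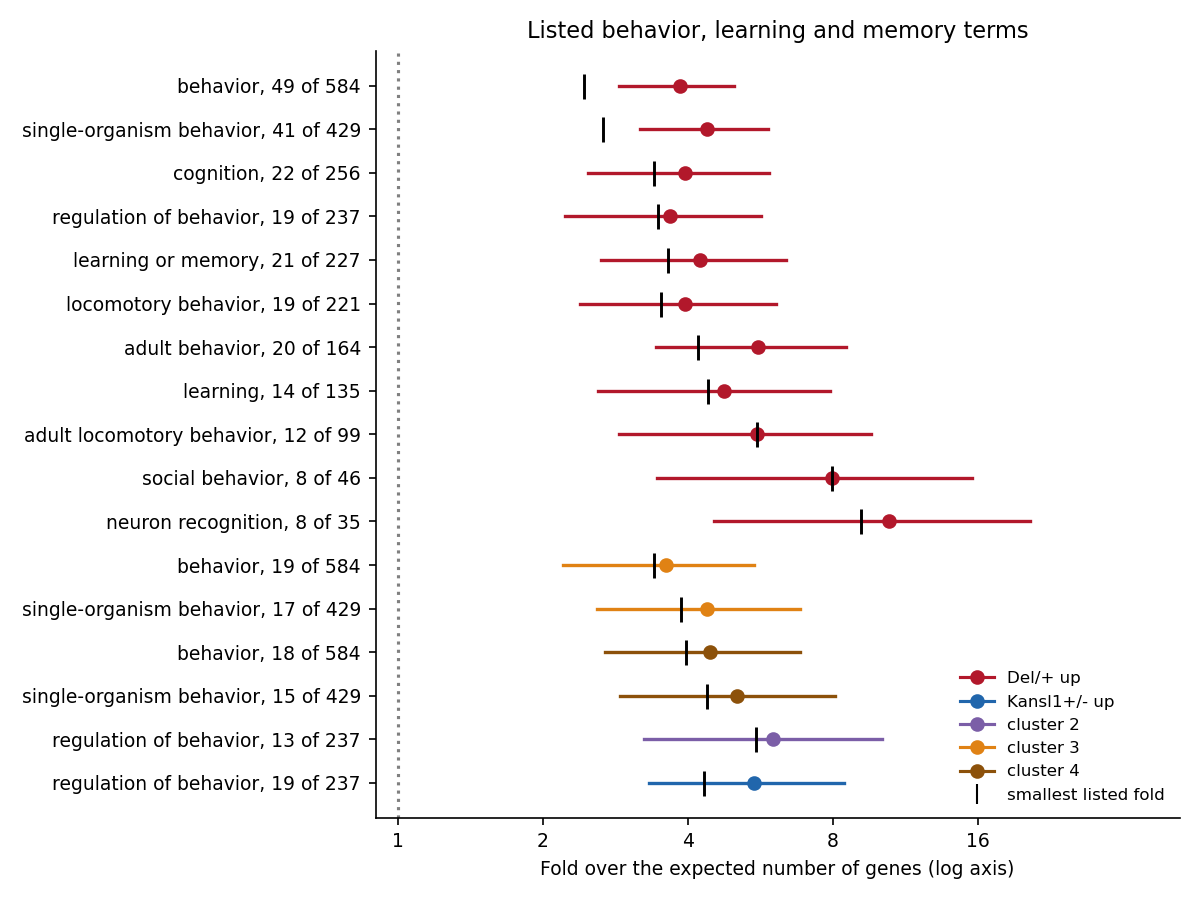
Fold of the observed over the expected number of genes (log axis) for each of the 17 listed entries, labelled with the term, its list genes and its background genes. Points are coloured by gene list, horizontal lines are exact 95% intervals, the dotted line marks a fold of 1 and the black tick is the smallest fold that would have been listed. The folds run from 3.60 to 10.48, and the points of adult locomotory behavior and social behavior lie on their ticks.

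Cognition and its narrower sets were listed for Del/+ up only. Cognition, with 256 background genes, held 22 genes of the list where 5.59 were expected, a 3.94-fold excess (interval 2.49 to 5.90). Learning or memory held 21 where 4.95 were expected, a 4.24-fold excess (interval 2.64 to 6.41). Learning held 14 where 2.95 were expected, a 4.75-fold excess (interval 2.61 to 7.90). The shares of the Del/+ up list fell from 4.30% for cognition to 4.10% for learning or memory and 2.73% for learning, as they must for nested sets. Each of the 3 folds lies within the intervals of the other two, and the sets share genes, so no order is read from them. All but 1 of the 22 cognition genes of the list were thus learning or memory genes.

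Of the terms of movement and adult activity, adult behavior had the higher fold in Del/+ up. It held 20 genes of its 164 where 3.58 were expected, a 5.59-fold excess (interval 3.44 to 8.54). Locomotory behavior held 19 genes of its 221 where 4.82 were expected, a 3.94-fold excess (interval 2.39 to 6.09). Adult locomotory behavior, which belongs to both, held 12 genes of its 99 where 2.16 were expected, a 5.56-fold excess (interval 2.88 to 9.62). The intervals of the 3 folds overlap. Since at least 12 genes are common to both broader sets, between 20 and 27 genes of the Del/+ up list belonged to adult or to locomotory behavior.

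Social behavior was the smallest of the sets of whole-animal behavior, with 46 background genes. It held 8 genes of the Del/+ up list, 1.56% of the list (interval 0.677% to 3.06%), where 1.00 was expected, a 7.97-fold excess (interval 3.45 to 15.6). This corresponds to 17.4% of the genes of the term (interval 7.82% to 31.4%). With 8 genes the term stood exactly at the smallest count that would be listed, and its interval spans more than a 4-fold range. Its fold was higher than that of behavior, 3.85, but a small set needs a higher fold to be listed at all, and the interval of social behavior reaches below that value.

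Regulation of behavior, with 237 background genes, was the only member listed for both mutants. It held 19 genes of the Kansl1+/- up list where 3.46 were expected, a 5.49-fold excess (interval 3.33 to 8.43). It also held 19 genes of the Del/+ up list, where 5.17 were expected, a 3.67-fold excess (interval 2.23 to 5.68). In cluster 2, it held 13 genes where 2.16 were expected, a 6.02-fold excess (interval 3.24 to 10.1). The same number of genes is 5.54% of the shorter Kansl1+/- up list (interval 3.37% to 8.52%) and 3.71% of the longer Del/+ up list (interval 2.25% to 5.73%), and the intervals overlap. Whether they are the same 19 genes cannot be read from the tables, and both lists rest on the same wt libraries, so the difference between them was not tested.

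Neuron recognition, the member that matched by letters alone, had the highest fold of the 17 entries. It held 8 of its 35 background genes in the Del/+ up list (22.9% of the term, interval 10.4% to 40.1%) where 0.76 were expected, a 10.48-fold excess (interval 4.54 to 20.5). It is a set of cell recognition, used for instance when axons choose partners, and not a set of behavior or learning.

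**Figure D2:**
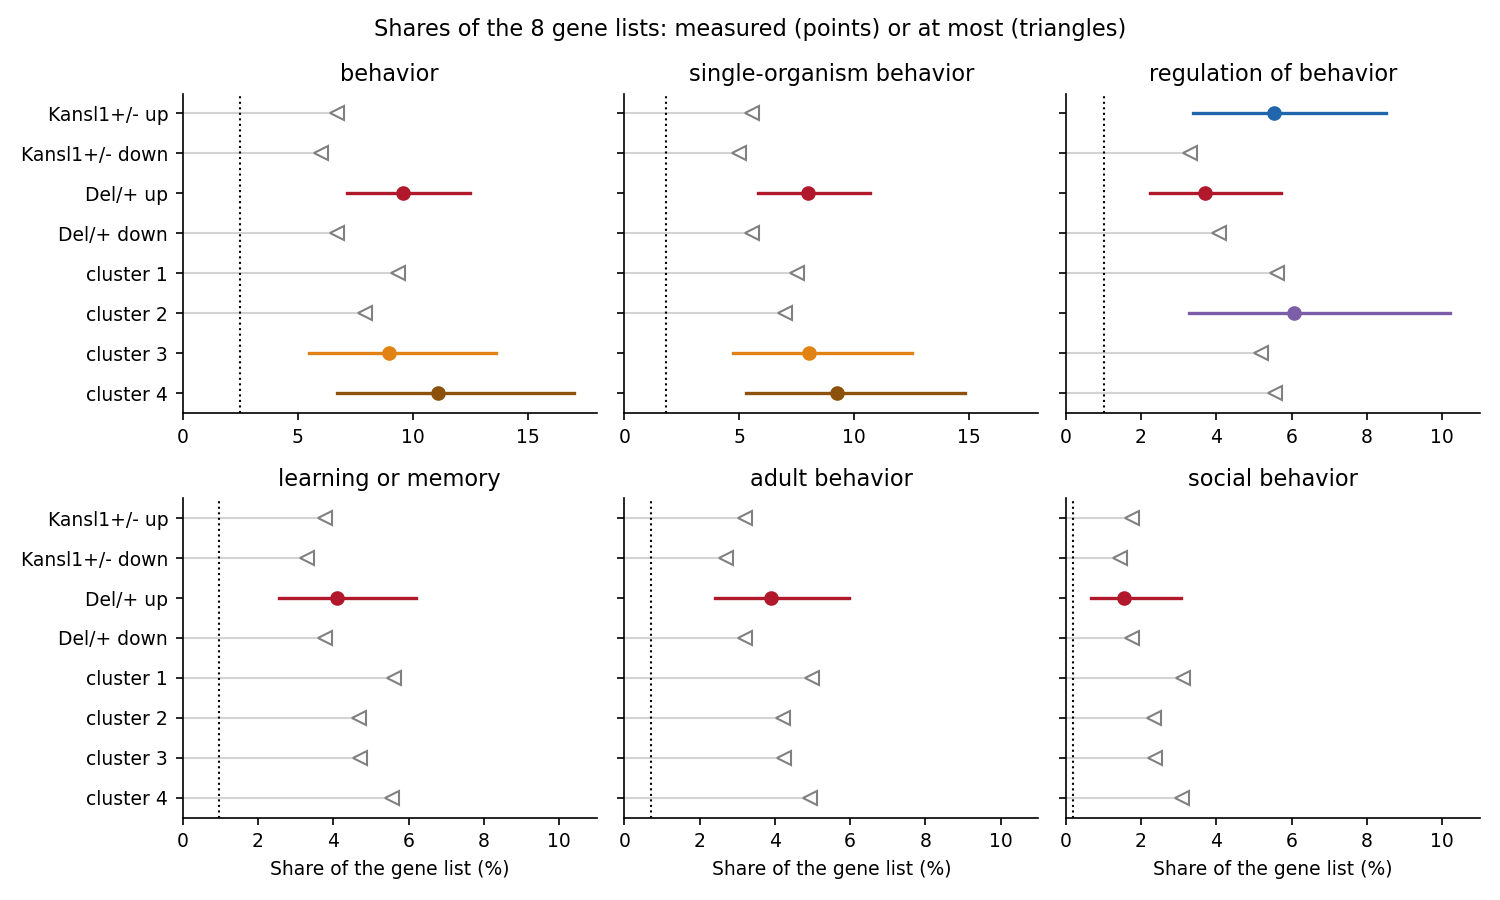
Share of each of the 8 gene lists (percent of its genes) that belongs to 6 of the terms. Filled points are measured shares with exact 95% intervals, open triangles are the largest share that a term could have without being listed, and the dotted line is the share of the background. Behavior has measured shares of 8.96% to 11.1% in 3 lists, regulation of behavior has points in 3 lists, and learning or memory, adult behavior and social behavior have a point in Del/+ up only.

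A term that is not listed may still hold genes of the list, and the tables give only an upper limit to their number. There were 71 pairs of a member and a list that did not reach the listing limit. For each, the largest count that would stay unlisted was computed from the sizes of the term, the list and the background. For behavior, this is 23 genes in Kansl1+/- up, which would be a fold of 2.69 and 6.71% of the list. The limit for behavior is 29 genes in Kansl1+/- down (fold 2.41, 6.00% of the list) and 23 genes in Del/+ down (fold 2.69). It is 15 genes in cluster 1, a fold of 3.77, and 17 genes in cluster 2, a fold of 3.19. The largest unlisted folds of behavior in Kansl1+/- up, Kansl1+/- down and Del/+ down lie below the 3.85 counted in Del/+ up and below the 2.88 at which its interval begins. A count in those lists would have a counting error of its own, and behavior was described because Del/+ up and clusters 3 and 4 listed it, so a difference between the lists was not tested.

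Single-organism behavior, as a subset holding 41 of the 49 behavior genes of Del/+ up, is not a separate observation. Its largest unlisted fold was 3.03 in Kansl1+/- up (19 genes) and in Del/+ down (19 genes) and 2.72 in Kansl1+/- down (24 genes), all below the 3.18 at which its Del/+ up interval begins. In cluster 1 the limit was 12 genes (fold 4.10) and in cluster 2 it was 15 genes (fold 3.83). As for behavior, a difference between the lists was not tested.

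For the narrower sets the limits are wide. Cognition could hold up to 14 genes of Kansl1+/- up and of Del/+ down (fold 3.74) and 17 genes of Kansl1+/- down (fold 3.23), each below the 3.94 of Del/+ up but within its interval. In clusters 1 to 4 its limits were folds of 5.73, 4.71, 4.76 and 5.66, all above 3.94. Learning or memory could hold up to 13 genes of Kansl1+/- up (fold 3.92) and 16 of Kansl1+/- down (fold 3.42). Learning could hold up to 10 genes of Kansl1+/- up, a fold of 5.07, which is above the 4.75 measured in Del/+ up. Its absence from the Kansl1+/- up list therefore leaves the order of the 2 mutants for learning undetermined.

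Of the terms of movement and social behavior, the limit in Kansl1+/- up lay below the Del/+ up fold for adult behavior and above it for the others. Locomotory behavior could hold up to 13 genes of Kansl1+/- up, a fold of 4.02 beside the 3.94 of Del/+ up. Adult behavior could hold up to 11 genes of Kansl1+/- up, a fold of 4.59 beside 5.59. Adult locomotory behavior could hold up to 9 genes of Kansl1+/- up, a fold of 6.22 beside 5.56. Social behavior could hold up to 6 genes of Kansl1+/- up, a fold of 8.92 beside 7.97, and up to 5 genes in each cluster, where the folds would range up to 15.9.

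Regulation of behavior, where it was not listed, could hold up to 16 genes of Kansl1+/- down (fold 3.28) and 14 of Del/+ down (fold 4.04). In clusters 1, 3 and 4 it could hold up to 9, 11 and 9 genes, with folds of 5.57, 5.14 and 5.50. Neuron recognition could hold up to 6 genes of Kansl1+/- up (fold 11.7) and 6 of Kansl1+/- down (fold 8.33).

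The limit depends on the sizes of the term, the list and the background. For the same term it was generally lower in a longer list, but not at every length, because counts are whole numbers. By list, the limits ranged from 2.69 to 11.7 in Kansl1+/- up, from 2.41 to 8.33 in Kansl1+/- down and from 2.69 to 11.7 in Del/+ down. They ranged from 3.77 to 16.8 in cluster 1, from 3.19 to 15.7 in cluster 2, from 4.76 to 15.8 in cluster 3 and from 5.50 to 16.6 in cluster 4. These ranges cover different sets of unlisted terms, 9 to 11 in each list. For behavior, the limit was 2.41 in the list of 483 genes and 3.77 in the cluster of 160. Of the 71 limits, 25 lay below the Del/+ up fold of the same term and 6 below the interval of that fold. All 6 belonged to behavior and its subset single-organism behavior, in Kansl1+/- up, Kansl1+/- down and Del/+ down. Every member was listed for Del/+ up, so its folds had already passed the limit. Nothing is read from these counts, and a difference between the lists was not tested.

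**Figure D3:**
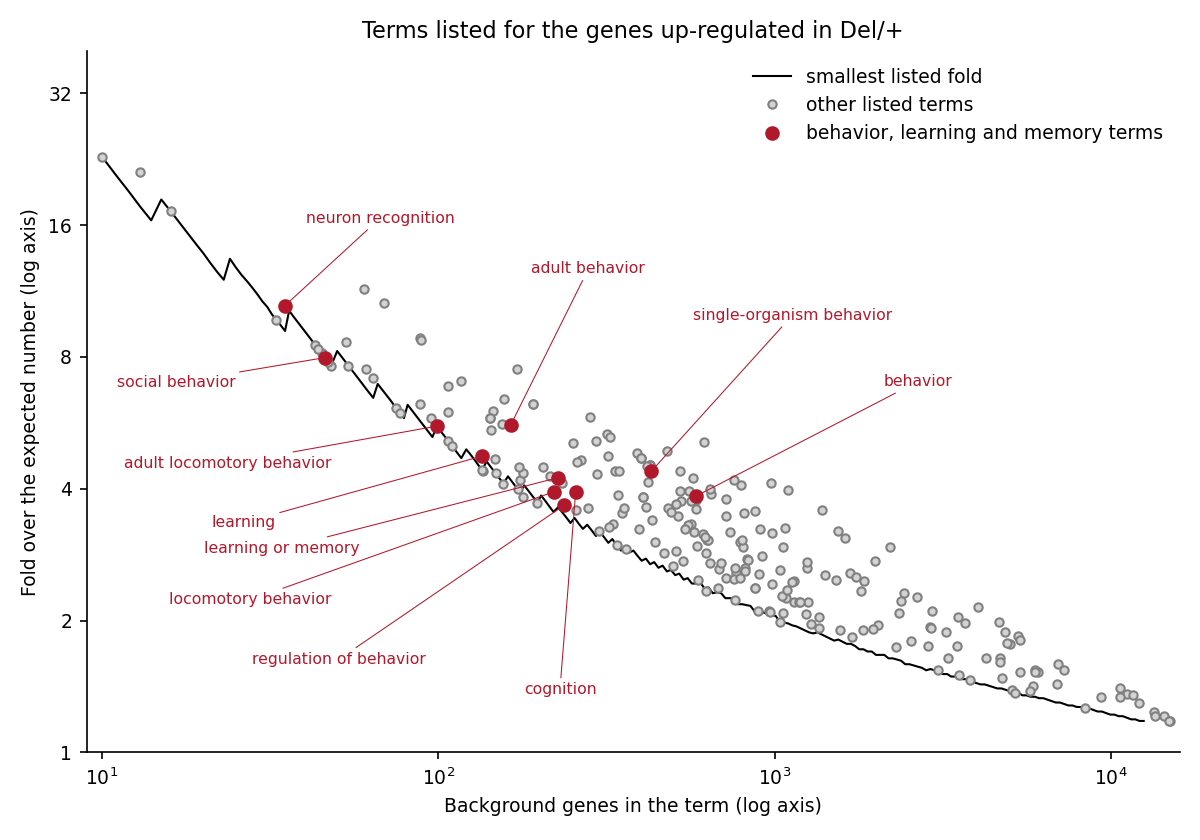
Fold over the expected number (log axis) against the number of background genes in the term (log axis) for the 250 terms listed for Del/+ up. Red points are the 11 members, neuron recognition included, grey points the other 239 terms, and the black line is the smallest fold that would be listed for a term of that size. Learning, adult locomotory behavior, social behavior, neuron recognition and regulation of behavior lie on the line or 1 gene above it, while behavior and single-organism behavior lie well above it.

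Most members stood close to the listing limit. Of the 17 entries, 2 were at the smallest listed count, adult locomotory behavior and social behavior in Del/+ up, and 5 were 1 gene above it. Altogether 11 were at most 2 genes above it. The 2 entries far from the limit were behavior and single-organism behavior in Del/+ up, where 31 and 25 genes would have sufficed and 49 and 41 were counted. Adult behavior in Del/+ up was 5 genes above its limit of 15, and regulation of behavior in Kansl1+/- up was 4 above its limit of 15.

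The median fold of the 11 members was 4.38, with a range of 3.67 to 10.48, and that of the 239 other listed terms was 3.05. Large terms have low folds, however, and over the 99 other listed terms with 35 to 584 background genes, the size range of the members, the median fold was 4.41. All of these terms had to pass a limit that depends on their size, so the medians are a description and nothing is read from them. The other lists held at most 2 members each, too few for a median. Regulation of behavior had a fold of 5.49 in Kansl1+/- up, where the other listed terms of that size range had a median of 4.95. In cluster 2 its fold was 6.02, beside a median of 8.21. Behavior and single-organism behavior had folds of 3.60 and 4.39 in cluster 3 (median 4.43). In cluster 4 they had 4.46 and 5.07 (median 6.55). Nothing is read from these medians either.

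By rank, behavior came 88th by fold and 112th by gene count among the 250 terms of Del/+ up, and neuron recognition came 6th by fold. Social behavior was 14th by fold and 240th by count. Regulation of behavior was 57th by fold of the 302 terms of Kansl1+/- up and 40th of the 104 of cluster 2.

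Nested sets allow the genes of a broad term to be divided. In Del/+ up, 41 of the 429 single-organism behavior genes were in the list (9.56%, interval 6.95% to 12.7%), against 8 of the 155 behavior genes outside that subset (5.16%, interval 2.25% to 9.92%). In cluster 3, 17 of 429 (3.96%) stood beside 2 of 155 (1.29%, interval 0.157% to 4.58%), and in cluster 4, 15 of 429 (3.50%) stood beside 3 of 155 (1.94%, interval 0.401% to 5.55%). The narrower set had the higher share in each of these 3 lists, and its interval overlapped that of the remaining genes in each. Within single-organism behavior lay 83.7%, 89.5% and 83.3% of the behavior genes of Del/+ up, cluster 3 and cluster 4, while it holds 73.5% of behavior in the background.

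Of the learning or memory genes, 21 of 227 (9.25%) were in the Del/+ up list, and 1 of the other 29 cognition genes was (3.45%, interval 0.0873% to 17.8%). Of the learning genes, 14 of 135 (10.4%) were in the list, and 7 of the other 92 learning or memory genes were (7.61%, interval 3.11% to 15.1%). Neither pair differed beyond the width of its intervals. Among adult behavior genes, the adult locomotory subset and the remainder had nearly the same share, 12 of 99 (12.1%, interval 6.42% to 20.2%) and 8 of 65 (12.3%, interval 5.47% to 22.8%). Among locomotory behavior genes, the adult locomotory subset had the share of 12.1% and the remaining 122 genes, 7 of them in the list, had 5.74% (interval 2.34% to 11.5%).

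**Figure D4:**
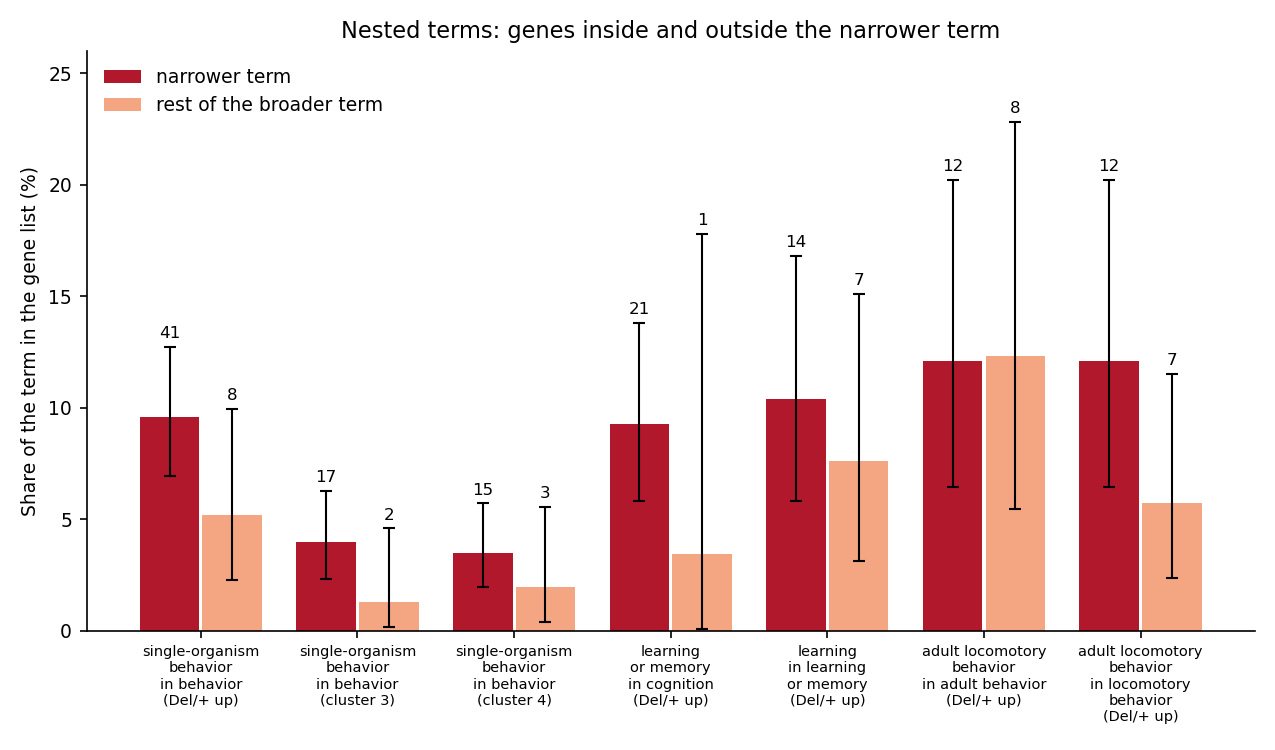
Share of a term's background genes that was in the gene list (percent), for the narrower of 2 nested terms (dark bars) and for the remaining genes of the broader term (light bars), with the list named under each pair. Error bars are exact 95% intervals and the numbers above them are gene counts. The narrower set has the higher share in 6 of 7 pairs, the exception being adult locomotory behavior within adult behavior, and the intervals overlap in all 7.

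The authors arranged the terms of each list in blocks. In Del/+ up, the 11 members stood in 5 of 27 blocks. Of the 7 terms of one block, 5 were members (behavior, single-organism behavior, learning or memory, cognition and learning), and the other 2 were regulation of synaptic transmission (28 of 297 genes, 4.32-fold) and regulation of synapse structure or activity (21 of 233 genes, 4.13-fold). The 3 terms of another block were locomotory, adult and adult locomotory behavior. Social behavior stood in a block of 6 with synapse assembly (10 of 64 genes, 7.16-fold), presynaptic membrane (10 of 61 genes, 7.51-fold), synapse organization (15 of 147 genes, 4.68-fold), hindbrain morphogenesis (8 of 47 genes, 7.80-fold) and hindbrain development (13 of 135 genes, 4.41-fold).

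In Del/+ up, the list that held both terms, regulation of behavior stood in another block than behavior. This block of 12 held terms of G-protein coupled receptor and cyclic AMP signaling, such as regulation of cAMP metabolic process (14 of 156 genes, 4.11-fold), and regulation of glutamatergic synaptic transmission (10 of 53 genes, 8.65-fold). The block also held neuropeptide signaling pathway, sensory perception of pain and of mechanical stimulus, regulation of anion transport and negative regulation of ion transport. In Kansl1+/- up, regulation of behavior shared a block of 9 with regulation of synaptic transmission (17 of 297 genes, 3.92-fold), regulation of amine transport (10 of 90 genes, 7.60-fold) and peptide receptor activity (11 of 141 genes, 5.34-fold). It also shared that block with blood circulation (17 of 329 genes, 3.54-fold) and circulatory system process (17 of 332 genes, 3.50-fold). It further stood there with response to alcohol (13 of 169 genes, 5.26-fold) and negative regulation of phosphorus and of phosphate metabolic process (23 of 538 genes each, 2.93-fold). In cluster 2, its block of 5 held regulation of synaptic transmission (15 of 297 genes, 5.54-fold) and regulation of glutamatergic synaptic transmission (6 of 53 genes, 12.41-fold). That block also held G-protein coupled receptor signaling coupled to a cyclic nucleotide second messenger (11 of 204 genes, 5.91-fold) and response to alcohol (10 of 169 genes, 6.49-fold). In clusters 3 and 4, behavior and single-organism behavior formed a block of their own, of 2 terms. Neuron recognition stood in a block of 6 with postsynaptic density (16 of 197 genes, 3.72-fold) and neurofilament (5 of 10 genes, 22.92-fold). The rule by which terms were placed in blocks is not given in the sources used here.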

How the data were processed

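H3K4me3 ChIP-seq was made from the hippocampus of 12 mice in 4 labelled groups of 3. Reads were mapped with BWA 0.6.2, and mm9 is the build in the submitters' processing notes. Per the methods of the study, peaks were called with the authors' own script, promoters were compared with DESeq2 against all 6 wt libraries, and GO enrichment was computed by hypergeometric tests.

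In the 8 deposited tables, a term has its gene count in the list and in the background, and the expected number and the fold are scores computed by the authors. They have no per-sample columns, so 0 such columns stayed unused and library depths are not known. The authors' p-value, Bonferroni and Benjamini columns hold their own findings and are not printed. The first 2 were used only to recover the background (23468 genes), the list sizes and the number of terms tested (21172). The recovered sizes returned the expected number and the fold of all 1076 entries within 0.01, and the p-value of 967 of the 967 entries above 1e-13 within 2%. The recovery was tested on simulated data, where the sizes of 8 of 8 lists and the background were returned without error.

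Members were found by the words given above, and every member is named. Other terms are named only where they share a block with a member or hold one of the further words given under the other observations. The members and lists were chosen with earlier results of these data known. Shares have exact Clopper-Pearson intervals at the 95% level. A fold interval is the interval of the share divided by the share of the background. The largest count of an unlisted term is the smallest count with a hypergeometric p below 1e-05, less 1, and it takes the tables as complete above that limit. All 1076 entries were at or above the smallest count so computed. No test between lists was made. Alternatives were whole-word matching, a search of the printed definitions, a limit of 1e-06, 1 gene fewer per count, a background without the list, Wilson intervals and lists 5% shorter. Computations were done in Python 3.11.15 with scipy 1.17.1 and numpy 2.4.6, and figures were drawn with matplotlib 3.10.9.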

Additional observations from a re-analysis of the deposited data

How the results depend on the processing

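Of the 17 entries, 16 with 10 terms matched by whole words, neuron recognition being the exception, and a search of the definitions added 0. At a limit of 1e-06, 12 remained, and the 5 lost were learning, adult locomotory behavior, regulation of behavior and social behavior in Del/+ up and behavior in cluster 3. With 1 gene fewer per count, 15 remained, without adult locomotory behavior and social behavior in Del/+ up. The folds ranged from 3.60 to 10.48 as deposited, from 3.41 to 9.17 with 1 gene fewer, and from 3.69 to 13.28 against the genes outside the list. The lower ends of the Wilson intervals for the share of behavior were 7.31%, 5.81% and 7.14% in Del/+ up, cluster 3 and cluster 4, beside 7.16%, 5.48% and 6.72% for the exact ones. Lists 5% shorter lowered the 71 largest unlisted counts by 0 or 1 gene, and 56 did not move. The tables hold no value per mouse, so no replicate could be left out, and the background is every annotated gene, so folds over genes marked by H3K4me3 in hippocampus were not computed. No paired analysis was possible because the tables hold no values per sample, and no test between lists was made here.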

Other observations

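A further search took the listed terms whose names hold sensory perception, neurological system process, synaptic plasticity, long-term, neuropeptide, response to alcohol, cocaine or amphetamine, circadian, rhythm, startle, pain, psychomotor or dopamine. It is a narrow set that leaves out most terms of synapses and brain development. It found 8 entries with 5 distinct terms, in 4 of the 8 lists. Response to alcohol held 13 of its 169 genes in Kansl1+/- up where 2.47 were expected, a 5.26-fold excess (exact 95% interval 2.82 to 8.88). In cluster 2 it held 10 genes, a 6.49-fold excess (interval 3.14 to 11.7). It stood in the block of regulation of behavior in both lists. In Del/+ up it was not listed and could hold up to 14 genes, a fold of 3.80.

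Terms of neuropeptides, short signaling peptides that act through G-protein coupled receptors, were listed for Del/+ up and cluster 2. Neuropeptide signaling pathway held 14 of its 107 genes in Del/+ up, a 6.00-fold excess (interval 3.30 to 9.97), and 9 genes in cluster 2, a 9.22-fold excess (interval 4.26 to 17.2). Neuropeptide receptor activity held 6 of its 47 genes in cluster 2, a 14.00-fold excess (interval 5.17 to 29.97). In Kansl1+/- up the pathway could hold up to 9 genes without being listed, a fold of 5.75. Sensory perception of pain held 12 of its 95 genes in Del/+ up, a 5.79-fold excess (interval 3.01 to 10.03), and 7 in cluster 4, a 10.67-fold excess (interval 4.33 to 21.5). Sensory perception of mechanical stimulus held 15 of its 179 genes in Del/+ up, a 3.84-fold excess (interval 2.16 to 6.27). These words were chosen with earlier results known and were not tested.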
